A study of Mus musculus with 4 samples.

Results

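The collagen gene family comprised 44 genes of the 57132 in the count tables, taken as every gene whose symbol had the form of a numbered collagen alpha chain. Their unique molecular identifiers (UMIs, tags that mark 1 captured RNA molecule each) were counted across the stromal, endothelial, podocyte and tubular cells of 4 mouse kidneys. The 4 mice were wild type and carried contrast-induced acute kidney injury (CIAKI), in which a radiographic contrast agent damages the kidney. Fresh kidney tissue was dissociated and its cells were profiled on the 10x Genomics platform, 1 library per mouse. The labels call the 4 libraries biological replicates and place all of them in batch 1. No untreated kidneys were analysed here, so each comparison below sets cell classes of injured kidneys against each other and none measures an effect of contrast. Contrast agent, dose, time of collection, strain and age are not given in the sources used here.

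Collagens are secreted or membrane-anchored proteins in which alpha chains wind into a triple helix. Type IV collagen forms the sheet-like network of basement membranes. In the kidney a network of alpha-1 and alpha-2 chains underlies vessels and many tubules, and a network of alpha-3, alpha-4 and alpha-5 chains forms the filter of the mature glomerulus, where its loss causes Alport syndrome. Fibril-forming collagens such as types I, III and V give interstitial tissue its tensile strength and are the matrix that accumulates in kidney fibrosis. Other collagens coat those fibrils, link cells to basement membranes or span the cell membrane.

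The libraries were not alike. After filtering, 40826 cells were kept, with 7085, 8747, 12903 and 12091 in mice 1 to 4. Mouse 4 stood apart, with a median of 2077 UMIs per cell against 5549 to 5777 in the others and a median ribosomal share of 13.7% against 1.49% to 2.35%. It shared 0 or 1 cell barcodes with each other library, which among themselves shared 23 to 54. Mouse 3 gave 1045 of the 1467 stromal-like cells and 2872 of the 2900 cells of cluster 1, which was named endothelial-like. The doublet caller marked 111 barcodes in mouse 2 and 0, 1 and 1 in mice 1, 3 and 4, so it had not worked in those 3 libraries. The 111 were only 1.25% of the 8858 cells of mouse 2, against an assumed rate of 0.8% per 1000 cells. Doublets may therefore remain in all 4 libraries. Counts of called collagens are therefore also given without mouse 4 and, for comparisons of endothelial-like with other cells, without cluster 1.

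Cell classes were rebuilt from marker genes that exclude every collagen, and a name ending in "-like" means that at least 3 fixed markers passed. Stromal-like cells (128, 198, 1045 and 96 in mice 1 to 4) comprised fibroblast-like cells (10, 27, 69 and 16) and mural cells, that is pericyte/mesangial-like, smooth muscle-like and juxtaglomerular-like cells (82, 132, 587 and 12 together), and stromal cells of no narrower name. In mouse 4 the mural class held only 12 juxtaglomerular-like cells. Endothelial-like cells numbered 753, 1584, 3166 and 1825, podocyte-like cells 63, 96, 392 and 45, proximal tubule-like cells 424, 185, 790 and 1321, and thick ascending limb-like cells 847, 325, 676 and 532. The podocyte gene Nphs1 averaged 1153 CPM (counts-per-million of the UMIs of a class) in podocyte-like cells and 0.529 CPM in endothelial-like cells. Pdgfra, a fibroblast marker, averaged 806 CPM in fibroblast-like and 0 CPM in podocyte-like cells. Narrower classes were named within each mouse, and the markers differed. Fibroblast-like cells of mice 1 to 3 passed for Pdgfra, Dcn and Fbln1. Those of mouse 4 passed for Dcn, Lum, Dpt, Mfap5, Clec3b, Scara5 and Fbln1 but not for Pdgfra. Whether they are the same kind of fibroblast was not tested. Unnamed clusters, together with stromal or endothelial sub-clusters left out for low UMI counts, doublet scores or leading genes of another lineage, held 5048 cells (12.4%) and 6.23% of collagen UMIs. Sub-clusters that only lacked a narrower name stayed in their class. Among them were 13 stromal-like cells of mouse 4 whose leading genes included the proximal tubule marker Miox. A sub-cluster of 19 stromal cells of mouse 2, led in part by the juxtaglomerular markers Ren1 and Akr1b7, was left out for its doublet score.

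Collagen RNA took its largest mean share of UMIs in fibroblast-like cells, followed by podocyte-like cells. A level in CPM sums the UMIs of a gene over all cells of a class in 1 mouse and divides by all UMIs of those cells. The 44 genes together took 0.913% to 0.951% of UMIs in fibroblast-like cells of mice 1 to 3 and 0.548% in mouse 4, and 0.517%, 0.488%, 0.540% and 0.227% in podocyte-like cells. They took 0.263%, 0.344%, 0.395% and 0.162% in endothelial-like cells, a mean of 0.291%, or 0.265% without cluster 1. Mouse 4 was lowest in each of these classes, and fibroblast-like cells lay above both other classes in every mouse. The share was 0.146% ± 0.0496 (SD, n = 4 mice) in thick ascending limb-like and 0.0986% ± 0.0300 in proximal tubule-like cells. In neutrophil-like and T lymphocyte-like cells, which make little or no collagen, it was 0.00926% ± 0.00531 and 0.0127% ± 0.00928. Of the 261542 collagen UMIs in kept cells, the mean share over mice was 41.1% from endothelial-like, 25.9% from tubular-like, 9.99% from stromal-like and 5.71% from podocyte-like cells. The order of the first 2 differed between mice. Endothelial-like cells gave 26.4%, 57.9%, 47.5% and 32.8% in mice 1 to 4 and tubular-like cells 39.7%, 11.9%, 10.8% and 41.1%, so the tubular share was the larger in mice 1 and 4. These classes made up 10.6%, 18.1%, 24.5% and 15.1% and 23.7%, 8.28%, 13.5% and 26.9% of kept cells.

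**Figure D1:**
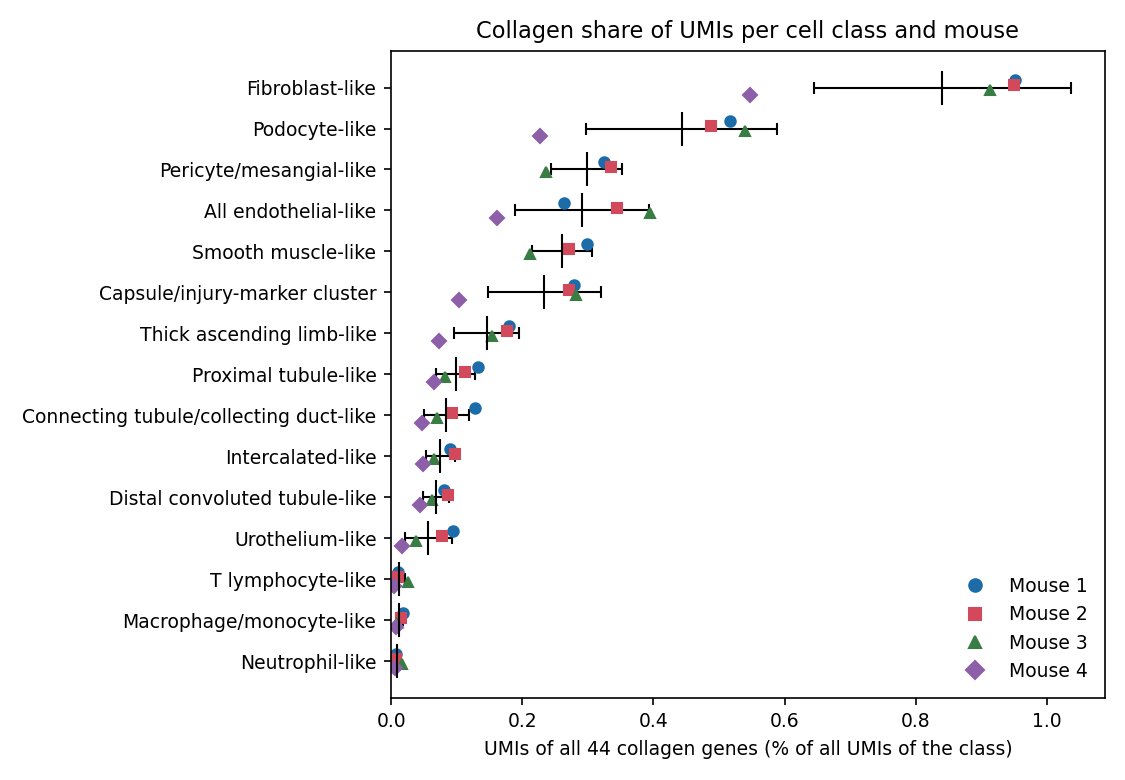
UMIs of the 44 collagen genes as a percentage of all UMIs of a class (x axis), for 15 cell classes (y axis) ordered by their mean. Symbols are single mice, the vertical tick is the mean and the bar its SD over mice. Fibroblast-like cells reach 0.951% and the 3 leukocyte classes at the bottom stay near 0.

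Of the 44 members, 31 reached a mean of 10 CPM in at least 1 class and 13 did not, and none was without a UMI. All 6 type IV genes, 9 of 11 fibril-forming genes, 5 of 9 fibril-associated genes, 3 of 6 type VI genes, all 4 transmembrane genes and both multiplexin genes were among the 31. The 13 low members had 7 to 170 UMIs each over all kept cells. They were Col2a1 and Col11a1 of the fibril-forming collagens, Col9a1, Col9a2, Col9a3 and Col22a1 of the fibril-associated ones, Col6a4, Col6a5 and Col6a6 of type VI, and Col7a1, Col8a2, Col10a1 and Col28a1. Their highest class means ran from 0.0638 CPM for Col9a1 to 8.06 CPM for Col8a2.

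**Figure D2:**
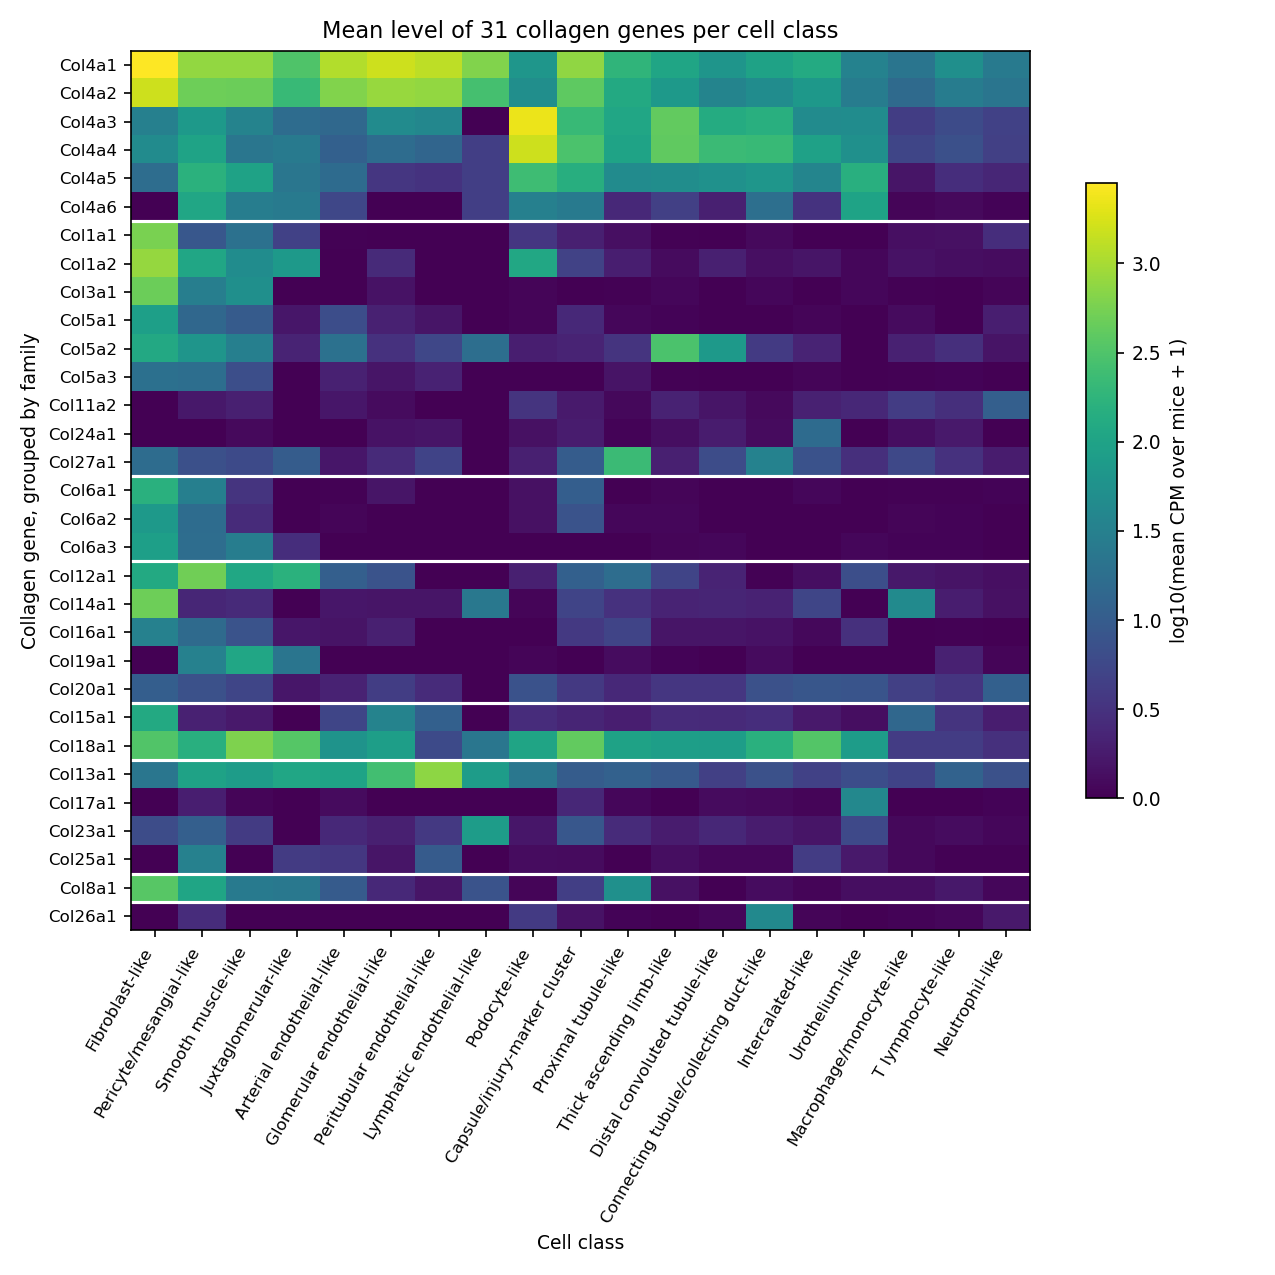
Mean level over mice of the 31 collagen genes that reached 10 CPM (y axis, grouped by family) in 19 cell classes (x axis), with colour on a log10(CPM + 1) scale. Type IV rows are bright across many classes, type VI rows brightest in the fibroblast-like column, and Col5a2, Col27a1 and Col24a1 brightest in tubular columns.

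Type IV chains divided podocytes from endothelium. Col4a1, the alpha-1 chain, was at 1242, 1708, 2350 and 791 CPM in endothelial-like cells of mice 1 to 4 and at 24.6, 30.8, 142 and 62.9 CPM in podocyte-like cells. Endothelial levels lay above podocyte levels with no overlap, and mouse 3 was highest in both. The log2 difference, podocyte minus endothelial, was -4.83 ± 0.40 (SE; edgeR quasi-likelihood test with mouse as a block, Benjamini-Hochberg adjusted p = 2.1e-05), and that of its partner Col4a2 was -4.26 ± 0.31 (adjusted p = 1.0e-05). Fibroblast-like cells held Col4a1 at 3153, 3657, 3229 and 1298 CPM, above the endothelial level within each of the 4 mice, although the ranges overlap. Summed endothelial markers had a median of 575 CPM in fibroblast-like cells, with all 9 genes detected, against 11740 CPM in endothelial-like cells. Their part in the fibroblast Col4a1 level was not tested.

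Col4a1 had a UMI in 90.3% ± 12.4 of endothelial-like cells, 12.7% of podocyte-like cells, 7.84% of neutrophil-like cells and 7.40% of T lymphocyte-like cells (means over mice). After each cell was thinned to 1000 UMIs, the shares were 70.8%, 3.60%, 2.04% and 3.27%. Per-mouse median depths ran from 1963 to 7093 UMIs in endothelial-like, 2959 to 6314 in podocyte-like, 1754 to 6845 in neutrophil-like and 1699 to 4930 in T lymphocyte-like cells, and thinning left out 340, 73, 508 and 347 cells of these classes. The Col4a1 level in neutrophil-like cells was 79.8 CPM in mouse 3 and 2.64 to 12.2 CPM in the others. The thinned podocyte share was close to that of T lymphocyte-like cells, whereas the podocyte level was above the neutrophil level in every mouse and below the T lymphocyte level in mice 1 and 2. The part of free RNA in the podocyte signal was not tested.

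The alpha-3 and alpha-4 genes showed the opposite order. Col4a3 was at 2785, 2465, 2550 and 1065 CPM in podocyte-like cells, at 541, 585, 316 and 216 CPM in the thick ascending limb-like class, and at 129, 98.3, 159 and 57.3 CPM in proximal tubule-like cells. These 3 classes did not overlap, and podocyte-like cells were highest in every mouse. In endothelial-like cells Col4a3 was at 10.0 to 59.8 CPM. Col4a4 was at 1711, 1706, 2088 and 746 CPM in podocyte-like, 550, 551, 305 and 217 CPM in thick ascending limb-like and 6.31 to 19.7 CPM in endothelial-like cells. Podocyte-like cells exceeded all tubular-like cells together by 3.19 ± 0.25 for Col4a3 (log2, adjusted p = 5.4e-06) and 2.49 ± 0.27 for Col4a4 (adjusted p = 4.9e-05). They exceeded endothelial-like cells by 6.20 ± 0.50 (adjusted p = 1.8e-05) and 6.98 ± 0.41 (adjusted p = 4.2e-06). Col4a3 had a UMI in 91.7% of podocyte-like and 46.9% of thick ascending limb-like cells, against 1.97% of neutrophil-like and 1.46% of T lymphocyte-like cells, and in 80.1%, 23.4%, 0.478% and 0.583% after thinning.

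The alpha-5 and alpha-6 genes were less abundant. Col4a5 was at 351, 366, 148 and 96.8 CPM in podocyte-like cells, above the 20.5 to 76.6 CPM of tubular-like cells and the 1.53 to 11.5 CPM of endothelial-like cells. Podocyte-like cells were higher by 2.16 ± 0.24 than tubular-like (adjusted p = 6.2e-05) and by 5.84 ± 0.45 than endothelial-like cells (adjusted p = 1.5e-05). In pericyte/mesangial-like cells, found in 3 mice, Col4a5 was at 236, 205 and 32.1 CPM and Col4a6, the alpha-6 chain, at 210, 102 and 14.1 CPM. Mouse 3 was lowest for both genes there. Urothelium-like cells had Col4a6 at 200, 132, 43.1 and 28.3 CPM, and no Col4a6 UMI was found in fibroblast-like cells of any mouse.

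Shares of all type IV UMIs show these patterns on 1 scale. Because genes are captured with unequal efficiency, a share is compared here between classes and not read as a protein ratio. Col4a1 and Col4a2 made up 97.6% ± 1.33 (SD, n = 4) of type IV UMIs in endothelial-like and 97.4% ± 2.16 in fibroblast-like cells, but 3.02% ± 2.07 in podocyte-like cells. Col4a3 and Col4a4 made up 90.4% ± 1.38 in podocyte-like, 76.8% ± 9.15 in thick ascending limb-like and 69.0% ± 5.12 in distal convoluted tubule-like cells. Proximal tubule-like cells were mixed, at 54.4% ± 3.79 for the first pair and 37.2% ± 6.58 for the second. Col4a5 and Col4a6 reached 35.1% ± 9.22 and 23.8% ± 3.21 in urothelium-like cells. In mouse 3, the Col4a1 and Col4a2 share of thick ascending limb-like cells was 33.0% against 9.53% to 19.6% in the others, and that library also had the highest Col4a1 level in neutrophil-like cells. Whether free RNA carried part of the tubular Col4a1 signal was not tested.

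**Figure D3:**
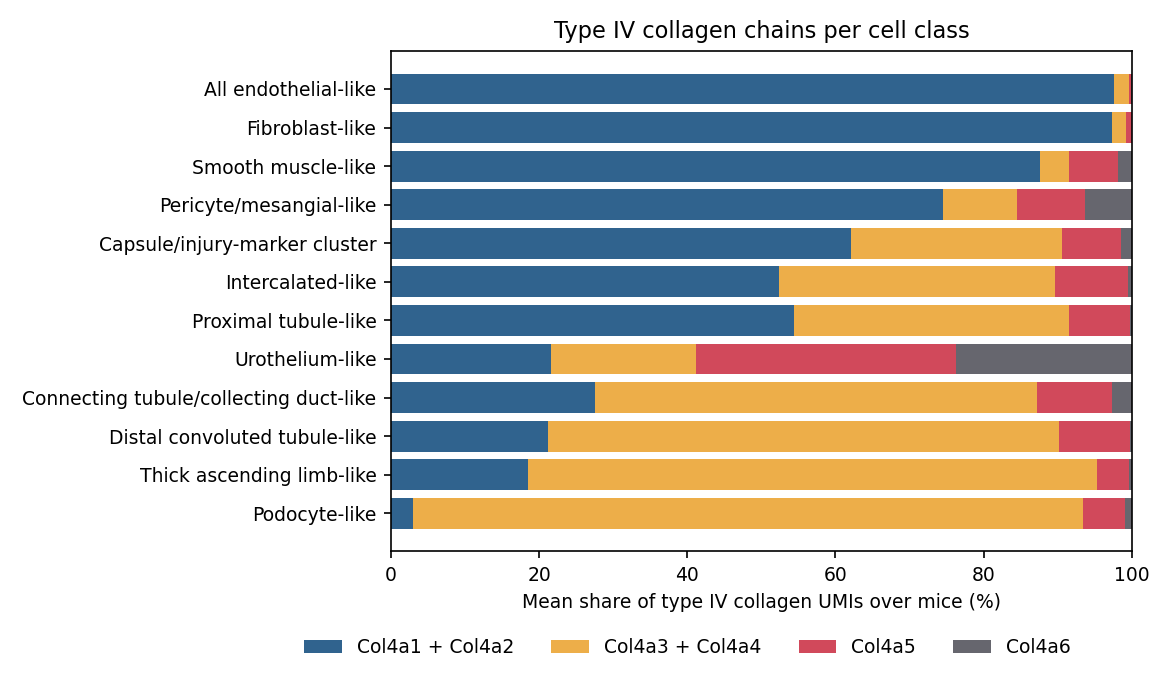
Share of type IV collagen UMIs (x axis, mean over mice) from Col4a1 with Col4a2, Col4a3 with Col4a4, Col4a5 and Col4a6, as stacked bars for 12 cell classes (y axis). Endothelial-like cells are almost wholly Col4a1 and Col4a2 (97.6%), podocyte-like cells almost wholly Col4a3 and Col4a4 (90.4%).

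The 6 type IV genes lie in 3 head-to-head pairs, each pair transcribed away from a shared region. In the GENCODE vM21 annotation, taking the outermost transcript start of each gene, those of Col4a1 (minus strand) and Col4a2 (plus strand) on chromosome 8 overlap by 22 bases. Those of Col4a4 (minus) and Col4a3 (plus) on chromosome 1 are separated by 71 bases, and those of Col4a6 and Col4a5 on chromosome X by 1308 bases. The stretch between Col4a4 and Col4a3 is shown because both genes were highest in podocyte-like cells, followed by thick ascending limb-like cells. It is the intergenic interval chr1:82586850-82586920 (GRCm38.p6), written 5′ to 3′ on the minus strand, with 69% G and C. It holds on neither strand the TATA box motif (TATAAA), the CAAT box motif (CCAAT) or the GC box motif (GGGCGG).
Col4a4 to Col4a3: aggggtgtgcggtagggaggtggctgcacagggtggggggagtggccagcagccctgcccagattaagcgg
Within this pair the balance differed between classes. The ratio of Col4a3 to Col4a4 UMIs was 1.43 ± 0.166 (SD, n = 4) in podocyte-like cells, 1.02 ± 0.0360 in thick ascending limb-like cells and 0.628 ± 0.138 in distal convoluted tubule-like cells, with per-mouse ranges of 1.22 to 1.63, 0.983 to 1.06 and 0.488 to 0.812 that did not overlap. The ratio of Col4a1 to Col4a2 was 1.77 ± 0.187 in endothelial-like and 1.25 ± 0.461 in podocyte-like cells, with ranges of 1.62 to 2.04 and 0.850 to 1.86 that overlapped. Col4a5 exceeded Col4a6 by 7.89 ± 3.98 in podocyte-like and 1.46 ± 0.221 in urothelium-like cells (ratios of UMIs, n = 4).

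Fibril-forming collagens of types I and III marked the fibroblast-like cells. Col1a1, the alpha-1 chain of type I, was at 319, 350, 758 and 830 CPM in fibroblast-like cells of mice 1 to 4, at 10.8, 25.7, 5.70 and 0 CPM in mural cells, and at 0 to 0.398 CPM in endothelial-like cells. Col3a1, the type III chain, was at 200, 274, 1058 and 392 CPM in fibroblast-like and 83.1, 39.8, 6.31 and 0 CPM in mural cells. Fibroblast-like levels lay above mural levels for both genes in all 4 mice, and mouse 3 was highest for Col3a1. The log2 difference between fibroblast-like and mural cells was 5.42 ± 0.58 for Col1a1 (adjusted p = 5.5e-05) and 3.84 ± 0.94 for Col3a1 (adjusted p = 0.013).

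Col1a2, the alpha-2 chain of type I, had a wider distribution than its partner. It was at 639, 632, 925 and 1011 CPM in fibroblast-like cells, at 69.2, 81.4, 66.2 and 62.4 CPM in mural cells and at 98.4, 61.6, 167 and 136 CPM in podocyte-like cells. Podocyte and mural levels overlapped, and both lay far above the 0.177 to 0.597 CPM of endothelial-like and the 0.142 to 1.5 CPM of tubular-like cells. Podocyte-like cells exceeded endothelial-like cells by 8.14 ± 0.30 (log2, adjusted p = 8.3e-07) and tubular-like cells by 7.51 ± 0.35 (adjusted p = 3.9e-07). In the same podocyte-like cells Col1a1 was at 0, 0, 0.429 and 9.68 CPM, from 3 UMIs in all, against 512 UMIs of Col1a2. Col3a1 was at 0, 0, 0.429 and 0 CPM. Of the 9 fibroblast markers 8, Pdgfra among them, had no UMI in podocyte-like cells, and their sum ran from 0 to 4.92 CPM over mice, against 3137 to 18120 CPM in fibroblast-like cells. Pericyte/mesangial markers summed to 27.2 to 92.0 CPM there, with 10 of 11 detected. Col1a2 had a UMI in 33.6% of podocyte-like cells, 0.201% of neutrophil-like and 0.172% of T lymphocyte-like cells, and in 13.8%, 0.0450% and 0.0359% after thinning. The ratio of Col1a2 to Col1a1 UMIs was 1.56 ± 0.403 in fibroblast-like cells (n = 4) and 7.07 ± 4.25 in mural cells (3 mice with enough UMIs). In GENCODE vM21, Col1a2 overlaps the gene Gm43921 on the same strand, so reads of the pair could be split by the counting.

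The stretch before the Col3a1 start is shown as that of a fibril-forming gene high in fibroblast-like cells. The 250 bases chr1:45311288-45311537 (GRCm38.p6, RefSeq, plus strand), directly upstream of the gene, hold 35.2% G and C and 1 TATAAA, in capitals.
Col3a1: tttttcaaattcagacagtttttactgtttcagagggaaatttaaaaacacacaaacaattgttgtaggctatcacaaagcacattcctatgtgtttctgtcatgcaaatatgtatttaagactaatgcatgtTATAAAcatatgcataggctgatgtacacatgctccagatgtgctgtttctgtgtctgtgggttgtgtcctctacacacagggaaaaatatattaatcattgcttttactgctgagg
RefSeq promoter windows matched 35 of the 44 members (38 windows), and motifs were counted on both strands of the bases upstream of the start. TATAAA occurred in 5 of the 38 windows (13.2%, against 12.4% of 32851 promoters), CCAAT in 13 (34.2% against 33.8%) and GGGCGG in 22 (57.9% against 32.7%). A match describes the letters only and is not a binding site.

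The remaining fibril-forming genes were split between stroma and tubule. Col5a1, a type V chain that sets fibril diameter, was at 150, 67.6, 53.4 and 75.5 CPM in fibroblast-like cells and at 0 to 18.6 CPM in mural cells (log2 difference 3.55 ± 0.63, adjusted p = 0.0017). For its partner Col5a2, thick ascending limb-like levels were 348, 274, 508 and 53.6 CPM, and fibroblast-like levels 170, 123, 141 and 45.3 CPM. The former were higher in mice 1 to 3, although the ranges overlapped. In mouse 4 both levels were close and the fibroblast-like one came from only 16 cells, so no order is given there. A difference between these classes was not tested. Proximal tubule-like cells had Col5a2 at 1.48 to 3.87 CPM, without overlap (proximal minus thick limb -6.95 ± 0.51, adjusted p = 2.8e-06). Distal convoluted tubule-like cells had it at 53.0, 109, 99.1 and 19.0 CPM. Col5a1 in thick ascending limb-like cells was at 0 to 0.302 CPM. Col5a2 had a UMI in 27.9% of thick ascending limb-like cells, 0.323% of neutrophil-like and 0.659% of T lymphocyte-like cells, and in 15.2%, 0.0302% and 0.161% after thinning. GENCODE vM21 places Gm38211 on the same strand within the span of Col5a2.

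Col27a1, a fibril-forming collagen known from cartilage, was at 359, 292, 34.7 and 217 CPM in proximal tubule-like cells and at 0.381 to 1.81 CPM in the thick ascending limb-like class. The 2 segments did not overlap, and mouse 3 was lowest by far. The log2 difference was 7.14 ± 0.48 (adjusted p = 1.7e-06). It had a UMI in 30.2% of proximal tubule-like against 0.671% of thick ascending limb-like, 0.576% of neutrophil-like and 0.720% of T lymphocyte-like cells, and in 17.0%, 0.164%, 0.0417% and 0.354% after thinning. The microRNA gene Mir455 lies within Col27a1 on the same strand. Col24a1, another minor fibril-forming gene, was at 18.6, 23.6, 7.05 and 10.2 CPM in intercalated-like cells, the acid-base handling cells of the collecting duct. Col5a3 stayed at 0 to 49.9 CPM in fibroblast-like cells.

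**Figure D4:**
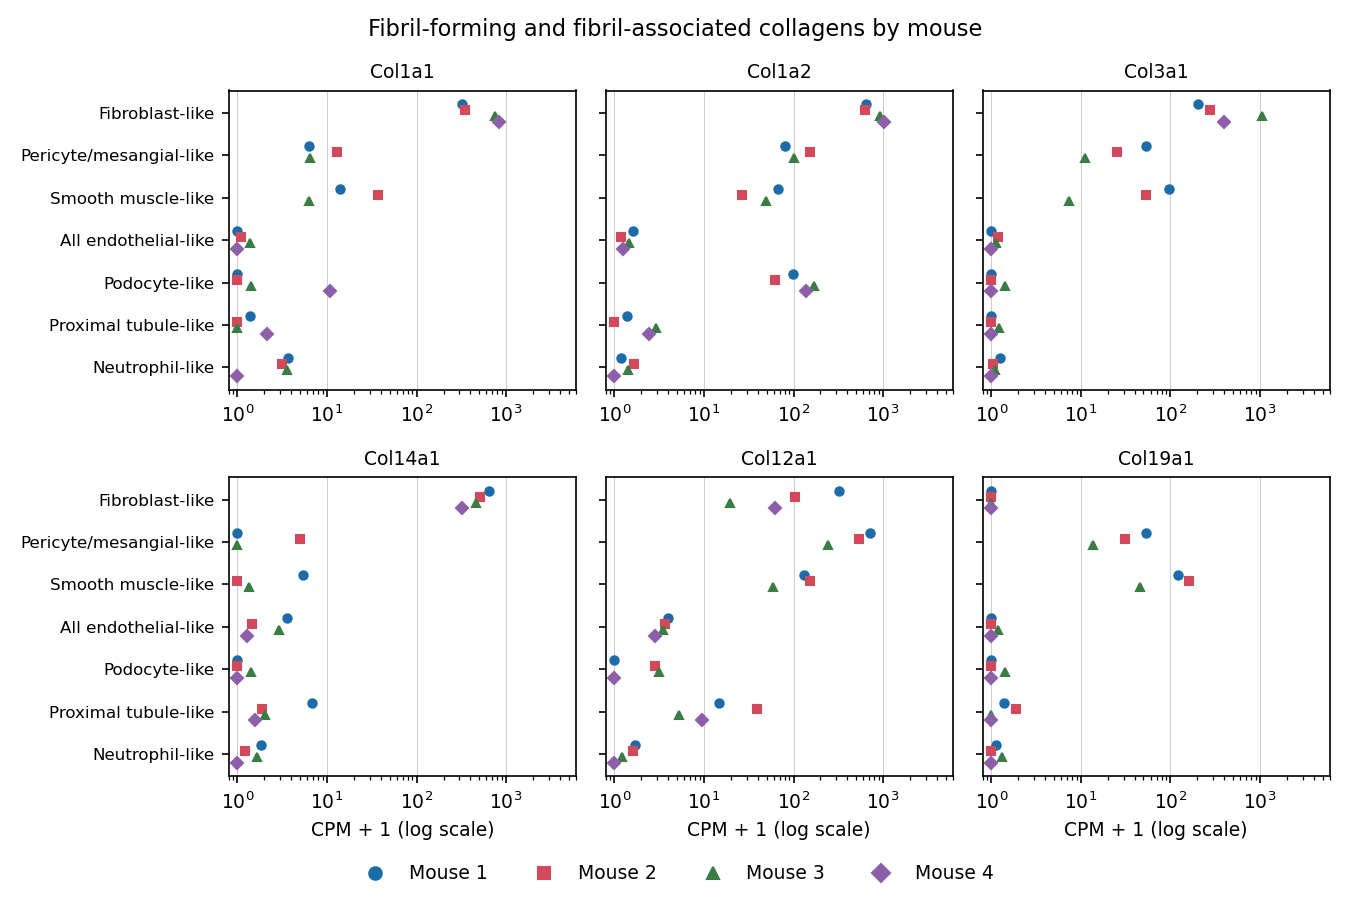
Levels of Col1a1, Col1a2, Col3a1, Col14a1, Col12a1 and Col19a1 (x axes, CPM + 1 on a log scale) in 7 cell classes (y axis), 1 symbol per mouse. Col1a2 alone of these 6 lies at 61.6 to 167 CPM in podocyte-like cells, and Col19a1 is at 0 in fibroblast-like cells.

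Fibril-associated collagens, which decorate the surface of fibrils, separated fibroblasts from mural cells. Col14a1 was at 639, 513, 459 and 317 CPM in fibroblast-like cells and at 3.08, 1.77, 0.204 and 0 CPM in mural cells (log2 difference 8.95 ± 0.52, adjusted p = 9.3e-07). Col12a1 was at 718, 532 and 245 CPM in pericyte/mesangial-like cells of mice 1 to 3 and at 319, 103, 18.6 and 60.4 CPM in fibroblast-like cells. Mural cells exceeded fibroblast-like cells for Col12a1 (-1.40 ± 0.39, adjusted p = 0.025), but the call was lost in 6 alternatives, with adjusted p = 0.13 without mouse 2, 0.079 without mouse 3 and 0.054 without mouse 4. Col19a1 was at 120, 161 and 45.2 CPM in smooth muscle-like cells and had no UMI in the 122 fibroblast-like cells. Over all mice, mural cells were at least 14.1-fold higher, taking 3 UMIs as the floor of the fibroblast-like sum. Col16a1 was at 49.9, 23.8, 23.2 and 30.2 CPM in fibroblast-like cells.

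Col14a1 also appeared in macrophage/monocyte-like cells, at 88.2, 68.9, 0.314 and 17.3 CPM. Mouse 3, where it was nearly absent, gave 1367 of the 1374 cells of cluster 12, which passed for the monocyte marker Ly6c2. Clusters 6 and 9, which did not pass for it, held 3 and 0 cells of mouse 3. Fibroblast markers summed to 1.26 to 3.23 CPM in this class. Col14a1 had a UMI in 14.6% of macrophage/monocyte-like, 0.302% of neutrophil-like and 0.363% of T lymphocyte-like cells, and in 4.59%, 0.0752% and 0.179% after thinning.

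Type VI collagen forms beaded microfilaments between cells and interstitial fibres. Its 3 main chains were fibroblast-like genes. Col6a1 was at 210, 147, 158 and 106 CPM, Col6a2 at 49.9, 51.7, 85.8 and 106 CPM and Col6a3 at 99.8, 63.6, 85.8 and 106 CPM in fibroblast-like cells of mice 1 to 4. In mural cells the genes were at 0 to 18.5, 0 to 9.23 and 0 to 31.8 CPM, below every fibroblast-like value. Fibroblast-like cells were higher by 4.22 ± 0.40 for Col6a1 (adjusted p = 2.1e-05), 3.85 ± 0.59 for Col6a2 (adjusted p = 6.1e-04) and 2.30 ± 0.50 for Col6a3 (adjusted p = 0.0065). The Col6a3 call was lost without mouse 3 (1.45 ± 0.49, adjusted p = 0.053). Endothelial-like cells held 3, 3 and 0 UMIs of these genes. Stromal-like cells had 189 UMIs of Col6a3, a level at least 189-fold that of endothelial-like cells.

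Col8a1, a short-chain collagen of vessel walls and of Descemet's membrane in the eye, was at 639, 445, 58.0 and 287 CPM in fibroblast-like cells. It was also present in proximal tubule-like cells, at 50.3, 97.5, 41.0 and 26.7 CPM, and was at 0 to 0.670 CPM in the thick ascending limb-like class. The segments did not overlap, and the log2 difference was 6.58 ± 0.41 (adjusted p = 1.0e-06). Fibroblast markers summed to 1.74 to 39.8 CPM in proximal tubule-like cells, with 8 of 9 detected and Lum at 0. Col8a1 had a UMI in 11.0% of proximal tubule-like cells, 0.109% of neutrophil-like and 0.280% of T lymphocyte-like cells, and in 3.89%, 0.00717% and 0.106% after thinning.

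**Figure D5:**
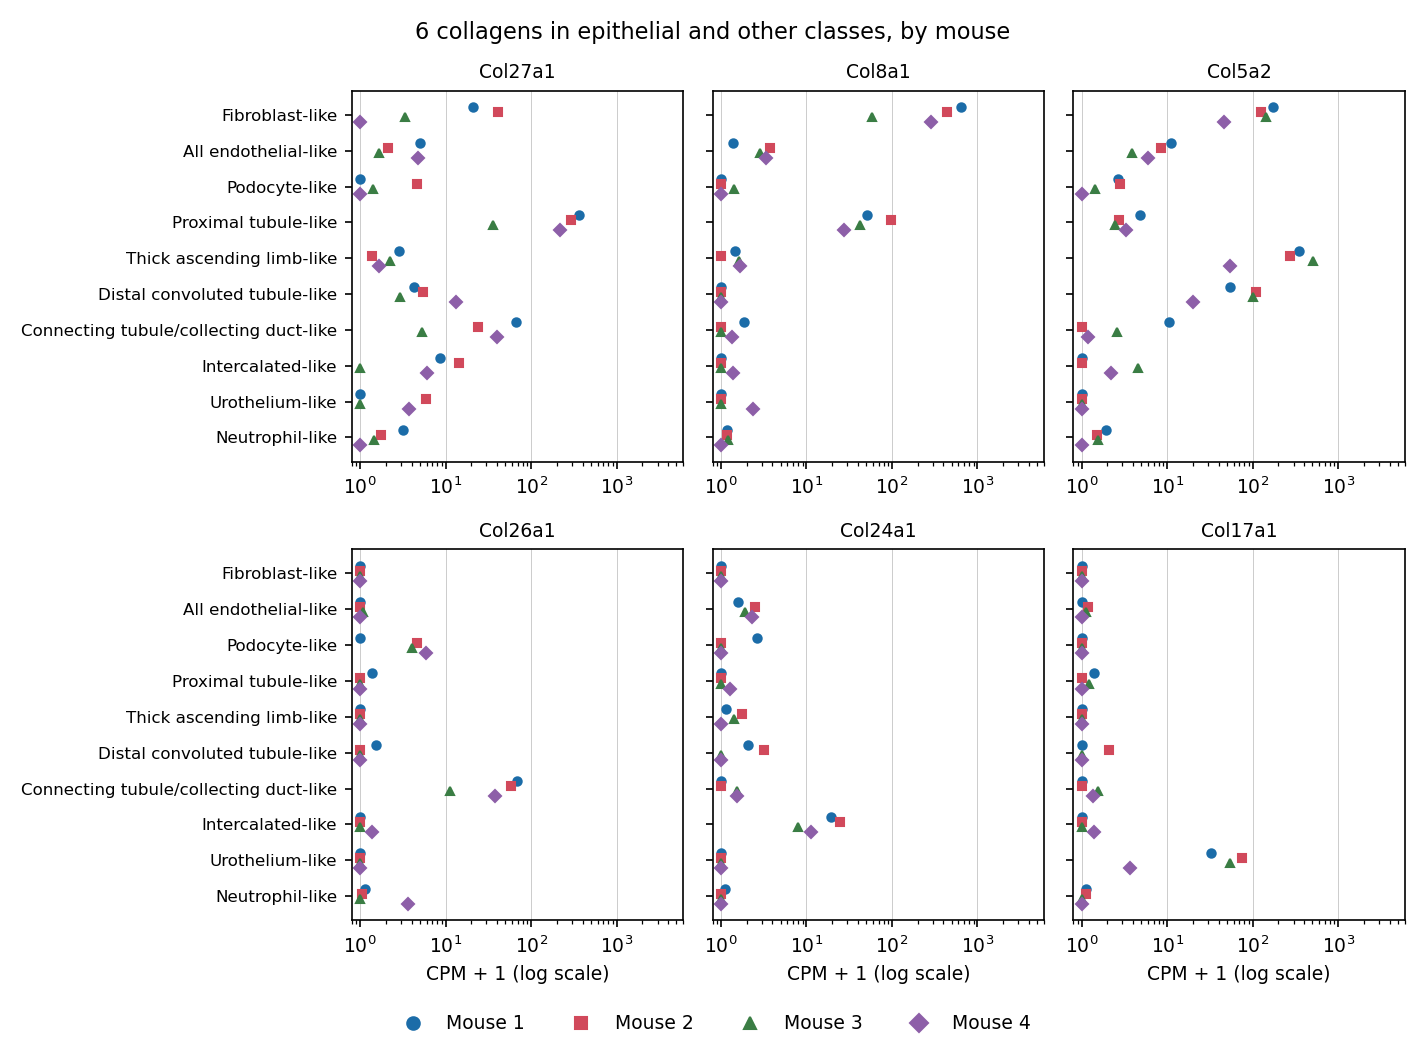
Levels of Col27a1, Col8a1, Col5a2, Col26a1, Col24a1 and Col17a1 (x axes, CPM + 1 on a log scale) in 10 cell classes (y axis), 1 symbol per mouse. Col27a1 and Col8a1 are raised in proximal tubule-like cells and Col5a2 in thick ascending limb-like cells, while the other 3 peak in connecting tubule/collecting duct-, intercalated- and urothelium-like cells.

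Multiplexins are basement membrane proteoglycans whose ends can be released as endostatin-type fragments. Col18a1, the source of endostatin, was at 762, 615 and 476 CPM in smooth muscle-like cells of mice 1 to 3. In podocyte-like cells it was at 100.1, 127, 124 and 58.1 CPM and in endothelial-like cells at 27.7, 10.5, 26.8 and 12.2 CPM, with no overlap (podocyte minus endothelial 2.42 ± 0.31, adjusted p = 2.8e-04). GENCODE vM21 gives Slc19a1 as overlapping Col18a1 on the other strand. Col15a1 was at 170, 123, 111 and 90.5 CPM in fibroblast-like and 0 to 1.54 CPM in mural cells (7.17 ± 0.48, adjusted p = 2.5e-06).

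The transmembrane collagens had their highest mean levels in different classes, but were not all confined to them. Col13a1, a cell-surface collagen of cell contacts, was at 473, 622, 354 and 286 CPM in endothelial-like cells, at 121, 53.0, 36.2 and 11.8 CPM in stromal-like cells and at 19.4 to 28.7 CPM in podocyte-like cells. Endothelial levels lay above both without overlap, and the gene was called in every comparison of endothelial-like cells with another class. The log2 difference was -3.24 ± 0.41 for stromal minus endothelial (adjusted p = 7.2e-04) and -4.24 ± 0.28 for podocyte minus endothelial (adjusted p = 6.7e-06). Without cluster 1 the mean endothelial level was 371 instead of 434 CPM. Col13a1 had a UMI in 61.8% of endothelial-like and 2.41% of neutrophil-like cells, and in 31.4% and 0.439% after thinning. Its upstream bases chr10:61979109-61979358 (GRCm38.p6, RefSeq, minus strand) are shown beside those of Col3a1 as an endothelial counterpart. They also hold 1 TATAAA, in capitals, but 68.8% G and C.
Col13a1: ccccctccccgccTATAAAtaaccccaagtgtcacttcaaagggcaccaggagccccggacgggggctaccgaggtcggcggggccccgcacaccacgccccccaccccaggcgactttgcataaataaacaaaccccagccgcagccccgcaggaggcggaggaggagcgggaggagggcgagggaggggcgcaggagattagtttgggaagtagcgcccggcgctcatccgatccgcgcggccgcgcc
Col17a1, the hemidesmosome collagen of stratified epithelia, was at 31.1, 73.3, 52.7 and 2.70 CPM in urothelium-like cells. Col23a1 was at 86.5 and 74.8 CPM in lymphatic endothelial-like cells, found in mice 3 and 4 (26 and 11 cells). They held 15 of its 307 UMIs in kept cells, so these levels rest on few counts. Col25a1 was at 36.7, 54.2 and 5.48 CPM in pericyte/mesangial-like cells.

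The remaining members that reached 10 CPM in a class were Col26a1, Col11a2 and Col20a1. Col26a1 was at 67.9, 56.3, 10.2 and 37.2 CPM in connecting tubule/collecting duct-like cells, which held 334 of the 337 UMIs in tubular-like cells. Col11a2 and Col20a1 were highest in neutrophil-like cells, at 15.5, 13.5, 0.764 and 10.6 CPM and at 12.5, 9.32, 4.59 and 15.8 CPM. In GENCODE vM21, Col20a1 overlaps BX649560.1 on the same strand, whereas Col11a2 overlaps no gene. In all, 28 of the 44 members had an overlapping gene there, 15 with one on the same strand and 18 with one on the opposite strand. The sources used here give neither the annotation nor the strand setting behind the counts.

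Stromal against endothelial cells gave the most one-sided result. Of 25 collagens that passed the filter on low counts, 19 were higher in stromal-like cells and 1, Col13a1, was lower, where 32.3% of all 12557 genes tested were called in either direction (15.8% higher, 16.5% lower). Their median log2 difference was 4.19 against -0.04 for all genes. It was also 4.19 with genes of 0 to 3 UMIs set at their counted ratio. Those ratios, 118 to 662, keep the genes above the median, so this check could not move it. A collagen can pass the filter through 1 class alone and then has to differ, so these counts describe the genes that passed and not all 44. The same limit applies to the counts and medians of the comparisons that follow. The partners Col4a1 (-0.53 ± 0.37, adjusted p = 0.33) and Col4a2 (-0.57 ± 0.28, adjusted p = 0.17) missed the threshold, as did Col4a3, Col15a1 and Col23a1. Besides the genes described above, stromal-like cells were higher in Col1a1 (8.38 ± 0.58), Col1a2 (8.68 ± 0.36), Col3a1 (9.02 ± 0.41), Col12a1 (5.66 ± 0.35), Col14a1 (5.47 ± 0.75), Col8a1 (5.24 ± 0.60), Col18a1 (4.19 ± 0.36), Col4a6 (5.32 ± 0.56), Col4a5 (4.32 ± 0.48), Col4a4 (1.94 ± 0.20), Col5a2 (2.75 ± 0.22), Col25a1 (2.73 ± 0.60) and Col27a1 (2.27 ± 0.40). Their adjusted p ran from 1.2e-05 (Col1a2) to 0.011 (Col25a1). Col19a1, Col6a1 and Col6a2 had 3 UMIs each in endothelial-like cells, and the ratios of stromal to endothelial CPM were 662 (95% counting interval 226 to 3217), 224 (75.7 to 1094) and 118 (39.4 to 580).
The calls of Col5a1 (3.21 ± 0.85, adjusted p = 0.024) and Col20a1 (1.26 ± 0.40, adjusted p = 0.047) were lost in 4 and 8 alternatives, for Col5a1 without mouse 1 (adjusted p = 0.10), mouse 2 (0.078), mouse 4 (0.074) and cluster 1 (0.065), and for Col20a1 without mouse 1 (0.21), mouse 2 (0.19) or mouse 4 (0.065). Without mouse 4, 19 collagens were higher and 2 lower, and without cluster 1, 18 and 1.

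The enzymes that finish and cross-link collagen followed the same direction. Of the procollagen processing and crosslinking genes, 9 of 10 tested were higher in stromal-like than endothelial-like cells and 1 was lower, with a median of 3.64. Loxl1 and Lox, lysyl oxidases that start cross-links between collagen chains, averaged 201 and 186 CPM in stromal-like cells against 0.624 and 2.40 CPM (log2 7.90 and 6.42). Adamts2, which cuts the N-propeptide, averaged 79.5 CPM in stromal-like cells and had 3 UMIs in endothelial-like ones. Of the interstitial matrix partners, 7 of 10 were higher and 0 lower, among them Tnc (6.51) and Fn1 (4.12), which encode tenascin-C and fibronectin. Of the 7 collagen receptors tested, 5 were higher and 1 lower. Ddr2, a receptor tyrosine kinase for fibrillar collagen, was higher by 8.22, whereas Adgrg1, a receptor for type III collagen, was lower by -5.58. The modification enzymes were split, with 5 of 17 higher and 3 lower. P3h2, a prolyl 3-hydroxylase, was higher by 5.06, and Colgalt2, a collagen galactosyltransferase, was lower by -6.07. The basement membrane partners were split too (3 of 15 higher, 4 lower), with the laminin chains Lama2 at 8.60 and Lama3 at -5.89. Of 7 breakdown genes 3 were higher, including Ctsk (4.99), and 1 was lower. Of 5 protease inhibitors 3 were higher, led by Timp2 (3.41), and Timp3, which binds to matrix, was lower (-1.46).

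Stromal cells also held more of most collagens than tubular cells. Of 27 collagens tested, 19 were higher in stromal-like and 4 lower, where 37.2% of 14393 genes were called (14.7% higher, 22.5% lower), and the median was 2.88 against -0.12 for all genes. Genes nearly absent from a class could pass the filter through the other alone, so these numbers describe the genes that passed. The 4 lower were Col4a3 (-2.59 ± 0.25, adjusted p = 1.0e-04), Col4a4 (-2.51 ± 0.25), Col27a1 (-2.44 ± 0.23) and Col26a1, with 2 UMIs in stromal-like cells and a tubular to stromal ratio of 42.5 (95% counting interval 11.7 to 352). The basement membrane pair was higher, at 3.04 ± 0.35 for Col4a1 (adjusted p = 2.7e-04) and 2.88 ± 0.31 for Col4a2, as were Col15a1 (3.32 ± 0.41), Col4a6 (3.31 ± 0.42), Col16a1 (2.70 ± 0.45), Col8a1 (2.66 ± 0.59), Col18a1 (1.37 ± 0.30) and Col5a1 (7.13 ± 0.59). Col13a1 (2.52 ± 0.69) lost its call without mouse 2 (adjusted p = 0.054). Col23a1 (1.69 ± 0.52) lost its call in 7 of 10 alternatives, among them leaving out mouse 1 (adjusted p = 0.076) or mouse 2 (0.13), cells of 1000 UMIs or more (0.86, adjusted p = 0.29) and resolution 0.5 (0.73, adjusted p = 0.32). Differences of the interstitial genes were Col1a1 9.24 ± 0.43, Col3a1 9.22 ± 0.55, Col19a1 8.52 ± 0.42, Col1a2 8.21 ± 0.58, Col6a2 6.76 ± 0.76, Col14a1 5.28 ± 0.62 and Col12a1 4.70 ± 0.37. Tubular-like cells held 3 UMIs each of Col6a3 and Col6a1, with stromal to tubular ratios of 249.7 (84.2 to 1222) and 296 (99.99 to 1446). Without mouse 4, 21 were higher and 5 lower.

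Among the partner genes all 5 protease inhibitors, 10 of 10 interstitial matrix partners, 8 of 9 processing genes, 11 of 17 modification genes and 9 of 19 basement membrane partners were higher in stromal-like than tubular-like cells. Bgn, the proteoglycan biglycan, was higher by 7.71, Lox by 8.18 and Timp1 by 4.98. Lower were 5 basement membrane partners, 3 of 8 receptors, 2 of 7 breakdown genes and 1 modification gene. The last was Colgalt2 (-5.16).

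Collagens were called in both directions between endothelial and tubular cells, and the share called higher was near that of all genes. Of 19 collagens tested, 5 were higher in endothelial-like and 9 lower, where 55% of 15435 genes were called (24.3% higher, 30.7% lower), and the median was -0.96 against -0.06 for all genes. Higher were Col13a1 (5.84 ± 0.46, adjusted p = 6.7e-05), Col4a1 (3.59 ± 0.21), Col4a2 (3.47 ± 0.18), Col15a1 (2.79 ± 0.48) and Col25a1 (2.40 ± 0.50). Lower were Col27a1 (-4.70 ± 0.28, adjusted p = 2.2e-05), Col4a4 (-4.41 ± 0.19), Col5a2 (-4.11 ± 0.78), Col4a5 (-3.55 ± 0.35), Col4a3 (-2.94 ± 0.39), Col8a1 (-2.85 ± 0.40), Col18a1 (-2.81 ± 0.51) and Col12a1 (-0.91 ± 0.31). Col26a1 had 1 endothelial UMI, and the ratio of tubular to endothelial CPM was 255 (95% counting interval 45.5 to 10100). Col12a1 (adjusted p = 0.042) lost its call in 8 alternatives, with adjusted p = 0.079 without mouse 1, 0.22 without mouse 2, 0.094 without mouse 4 and 0.13 without cluster 1. Without mouse 4, 5 were higher and 8 lower, and without cluster 1, 5 and 9.

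Of the partners, 12 of 17 modification genes, 11 of 18 basement membrane partners and 7 of 8 interstitial partners were higher in endothelial-like cells, with 1, 6 and 0 lower. Nid1, the basement membrane linker nidogen-1, was higher by 5.72, Sparc, a collagen-binding glycoprotein, by 5.35, and Eln, elastin, by 5.94. P3h2 (-5.43), Ddr1 (-5.71), the epithelial discoidin receptor, and Tinag (-6.12), a tubular basement membrane antigen, were lower. Processing genes (4 of 6 higher, 1 lower), protease inhibitors (4 of 5 higher), breakdown genes (2 of 7 higher, 3 lower) and receptors (2 of 6 higher, 2 lower) made up the rest. The neutrophil collagenase Mmp8 was among the lower breakdown genes (-2.21). Summed neutrophil markers ran from 28.6 to 516 CPM in endothelial-like and from 341 to 2208 CPM in tubular-like cells, all 7 of them detected in both, and Mmp8 averaged 2309 CPM in neutrophil-like cells. Their part in this difference was not tested.

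Podocyte-like cells were higher than endothelial-like cells in Col4a3 to Col4a6 and Col1a2 and lower in Col4a1, Col4a2 and Col13a1. Of 11 collagens that passed the filter, 7 were higher in podocyte-like cells and 4 lower, where 31.5% of 11631 genes were called (14.6% higher, 16.9% lower), and the median was 2.42 against -0.05. Beyond the type IV, Col1a2, Col13a1 and Col18a1 values given above, Col4a6 was higher by 4.79 ± 0.75 (adjusted p = 9.8e-04) and Col20a1 by 1.96 ± 0.46 (adjusted p = 0.0095). Col20a1 was highest in neutrophil-like cells, and neutrophil markers were also higher in podocyte-like than endothelial-like cells (281 to 6169 against 28.6 to 516 CPM summed), whose part in this call was not tested. Col15a1 was lower (-3.56 ± 0.92, adjusted p = 0.016), a call lost without mouse 3 (adjusted p = 0.051). With no filter on low counts 13 of 42 collagens were called (8 higher, 5 lower), and with DESeq2 14 of 22 (9 higher, 5 lower). Without mouse 4, 7 were higher and 5 lower, as they were without cluster 1.

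The modifying enzymes that stood out in podocytes were Plod2, a lysyl hydroxylase, at 549 against 44.5 CPM (log2 3.49, adjusted p = 8.5e-06), and P3h2, at 797 against 3.54 CPM (7.56, adjusted p = 1.1e-05). Of the 16 modification genes tested, 3 were higher and 4 lower. Of 6 processing genes 4 were higher, with Loxl1 (6.37), Loxl2 (4.83) and Pcolce (4.23), an enhancer of procollagen cleavage, in the lead, and 1 was lower. Basement membrane partners were mostly lower (7 of 13, with 4 higher). Npnt, nephronectin, was higher by 4.74, and Lama3 (-4.78) and Tinagl1 (-5.03) were lower. Of 7 interstitial partners 2 were higher, Ccn2 (connective tissue growth factor) by 3.76, and 4 were lower. Inhibitors (2 of 4 higher, 1 lower) and receptors (2 of 5 higher, 2 lower) were split. All 3 breakdown genes called were higher, namely Mrc2 (4.56), the collagen uptake receptor, Mmp8 (3.12) and Mmp9 (2.14). All 7 neutrophil markers were detected in podocyte-like cells. Mmp8 and Mmp9 averaged 2309 and 686 CPM in neutrophil-like cells, and the part of neutrophil RNA in these calls was not tested.

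Against tubular cells, podocytes were higher in Col4a3 to Col4a6 and lower in several tubular collagens. Of 15 collagens tested, 6 were higher and 5 lower, where 34.8% of 12802 genes were called (12.6% higher, 22.2% lower), and the median was -0.40 against -0.13. Col4a6 was higher by 2.84 ± 0.31 (adjusted p = 5.4e-05) and Col13a1 by 1.42 ± 0.37 (adjusted p = 0.013), the latter lost without mouse 1 (adjusted p = 0.063). Podocyte-like cells held 3, 3 and 1 UMIs of Col5a2, Col27a1 and Col8a1, and the ratios of tubular to podocyte CPM were 157 (95% counting interval 53.6 to 761), 68.2 (23.3 to 331) and 42.9 (7.67 to 1698). Such genes could pass the filter through tubular-like cells alone, so the counts describe the genes that passed. Col4a1 (-1.29 ± 0.31, adjusted p = 0.0087) and Col4a2 (-0.86 ± 0.28, adjusted p = 0.037) were lower. The Col4a1 call was lost without mouse 1 (adjusted p = 0.051), and that of Col4a2 without mouse 1 (0.23), mouse 2 (0.10) or mouse 4 (0.080). Without mouse 4, 6 were higher and 4 lower. Sparc, at 4656 against 30.3 CPM (log2 7.11), Loxl2 (7.32), Ccn2 (5.99) and Plod2 (4.04) led the partner genes that were higher. Of these lists, 7 of 15 modification genes, 4 of 6 processing genes, 3 of 4 interstitial partners, 3 of 4 inhibitors and 2 of 6 breakdown genes were higher with 0 lower. The basement membrane partners were evenly divided (6 of 17 higher, 6 lower), with Lamb1 lower (-6.18), and 1 of 6 receptors was higher and 2 lower.

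Within the stroma, fibroblasts held more of most collagens than mural cells. Of 20 collagens tested, 13 were higher in fibroblast-like and 3 lower, where 19% of 5804 genes were called (9.58% higher, 9.37% lower), and the median was 2.32 against -0.03. It was also 2.32 with Col19a1 at its bound, but Col19a1 was lower in fibroblast-like cells either way, so this could not move the median. Genes nearly absent from a class, such as Col14a1 and Col15a1 in mural cells, could pass the filter through the other alone. The counts and the median therefore describe the genes that passed. Col8a1 (2.59 ± 0.36, adjusted p = 3.0e-04), Col1a2 (3.38 ± 0.29), Col4a1 (2.24 ± 0.28), Col4a2 (1.97 ± 0.27) and Col5a2 (2.33 ± 0.56) were higher in addition to those given above. Col4a5 was lower (-3.78 ± 0.84, adjusted p = 0.0071), with adjusted p = 0.058 without mouse 1, where Col5a2 gave 0.054. Only 10 fibroblast-like cells of mouse 1 and 12 mural cells of mouse 4 entered, and without mouse 4, 13 were higher and 2 lower. Smooth muscle markers summed to 1651 to 9794 CPM in fibroblast-like cells, with all 8 detected, and Acta2 averaged 1105 CPM there against 8847 CPM in mural cells. The part of mixed cells in these differences was not tested. All 5 processing genes tested were higher, with Pcolce at 3.66 and Adamts2 at 3.04, and so were all 3 breakdown genes, with Ctsk, cathepsin K, at 5.12. Of the others, 7 of 9 interstitial partners, 3 of 4 inhibitors, 5 of 14 modification genes, 4 of 11 basement membrane partners and 1 of 4 receptors were higher. Lower were P3h2 (-3.15) and 2 basement membrane partners, of which Lama5 gave -3.07.

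Along the nephron, proximal tubule-like cells had more Col27a1 and Col8a1, and less Col5a2, Col4a3 and Col4a4, than thick ascending limb-like cells. Of 11 collagens tested, 2 were higher and 3 lower, a share near that of all genes, where 38.2% of 11933 genes were called (19.2% higher, 19% lower), and the median was 0.18 against 0.00. Col4a3 differed by -2.05 ± 0.27 (adjusted p = 1.7e-04) and Col4a4 by -2.20 ± 0.28 (adjusted p = 1.3e-04). Col4a1 (0.67 ± 0.28, adjusted p = 0.090) and Col4a2 (0.63 ± 0.25, adjusted p = 0.074) missed the threshold. Without mouse 3, 5 were higher and 3 lower, and without mouse 4 the counts were 2 and 3. Pcolce, at 1.61 against 85.5 CPM (log2 -5.66), and Colgalt2 (-4.43) were lower in proximal tubule-like cells, and the laminin chains Lama3 (3.91) and Lama1 (3.86) and Timp3 (1.82) were higher. Of 15 modification genes 3 were higher and 6 lower, and of 16 basement membrane partners 5 were higher and 3 lower. Of 5 receptors 3 were lower, and the processing, breakdown, inhibitor and interstitial lists had 1 to 3 genes tested each.

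Cluster 28, of 86, 81, 219 and 145 cells in mice 1 to 4, passed for injured proximal tubule markers (Sox9, Dcdc2a, Spp1, Krt8 and Sox4) and for 4 genes of the epithelium that lines the glomerular capsule (Cldn1, Ncam1, Dkk3 and Akap12), and also for the smooth muscle genes Tagln, Mylk and Smtn. The proximal tubule-like class it is compared with also held clusters that passed for injury markers, namely cluster 27 (Havcr1, Krt20, Sox9, Krt8, Sox4 and Plin2), with 525 of the 790 cells of mouse 3, and cluster 19 (Havcr1, Sox4 and Plin2). Summed injury markers ran from 14020 to 18650 CPM in cluster 28 and from 6110 to 10160 CPM in proximal tubule-like cells. Cluster 28 is called here by its number and is the capsule/injury-marker cluster of the plots. Its leading genes included Ankrd1, Cryab and Proser2. With cells of 1000 UMIs or more, these genes were among those leading a thin limb-like cluster of 196 cells, beside a capsule-named cluster of 338. Col4a3 and Col4a4 then made up 17.9% of type IV UMIs in the capsule-named cluster, against 28.5% in cluster 28. Whether cluster 28 holds thin limb cells was not tested. Of 12 collagens tested, 6 were higher in cluster 28 than in proximal tubule-like cells and 2 lower, where 36.4% of 11286 genes were called (17.6% higher, 18.8% lower), and the median was 1.41 against -0.04. Col4a1 was at 817, 773, 1153 and 276 CPM in cluster 28 and at 264, 157, 208 and 103 CPM in proximal tubule-like cells, higher in every mouse (1.75 ± 0.25, adjusted p = 8.0e-04). Col18a1 was at 507, 457, 469 and 264 CPM against 125, 117, 48.8 and 100.6 CPM, without overlap (1.94 ± 0.31, adjusted p = 0.0014). Col4a2 (1.43 ± 0.20), Col4a4 (1.38 ± 0.23), Col4a5 (1.53 ± 0.21) and Col4a6 (3.86 ± 0.39) were higher too, and Col27a1 (-4.85 ± 0.22) and Col8a1 (-4.38 ± 0.68) were lower. Without mouse 4, 8 were higher and 2 lower.

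All 6 interstitial partners tested were higher in cluster 28, with Tnc at 7.03 and Ccn2 at 4.48. So were 10 of 14 modification genes, including Serpinh1 (2.44), the collagen chaperone HSP47, 10 of 17 basement membrane partners and all 4 receptors. Loxl1 (6.27) and Timp2 (5.33) were higher as well. Of 3 breakdown genes Mmp14 was higher (2.22), and Mmp8 (-1.11) and Mmp9 (-1.09) were lower. Summed neutrophil markers had medians of 659 CPM in cluster 28 and 1604 CPM in proximal tubule-like cells, and their part in these differences was not tested.

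Col18a1 was higher and Col13a1 lower in both glomerular and arterial endothelial-like cells than in the other endothelial-like cells. Peritubular capillary-like cells were found in mouse 1 only, where Col13a1 was at 732 CPM, so the planned comparison with glomerular cells could not be run and comparisons with all other endothelial-like cells were chosen after the data had been seen. Glomerular endothelial-like cells (75, 87 and 201 in mice 1 to 3) had Col18a1 at 65.6, 58.0 and 129 CPM and Col15a1 at 19.7, 44.9 and 37.3 CPM, against means of 15.9 ± 7.71 and 12.8 ± 6.85 CPM (SD, n = 3) in the other endothelial-like cells. Of 7 collagens tested 2 were higher, Col18a1 (2.58 ± 0.29, adjusted p = 0.0038) and Col15a1 (1.51 ± 0.31, adjusted p = 0.033), and Col13a1 was lower (-0.94 ± 0.15, adjusted p = 0.012), where 6.87% of 11056 genes were called (3.08% higher, 3.79% lower). Col15a1 and Col13a1 lost their calls without mouse 1 (adjusted p = 0.10 and 0.13) or mouse 2 (0.14 and 0.078). Without mouse 3, 2 were higher and 3 lower. Of the partners, 11 were called, among them Tll1, a tolloid protease that trims procollagen (-4.39), and Lamb1 (2.78). That count was unstable, at 1 without the block and 4 to 24 leaving out a mouse. Each fit without a mouse had only 2 mice here.

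Arterial-like cells, whose leading genes included those of descending vasa recta, numbered 89, 165, 655 and 244. Their Col13a1 was at 28.7, 240, 85.3 and 48.9 CPM, against a mean of 506 ± 143 CPM (SD, n = 4) in the other endothelial-like cells, lower in all 4 mice. Of 10 collagens 4 were higher and 5 lower, where 16.6% of 11618 genes were called (7.99% higher, 8.63% lower). Higher were Col12a1 (2.72 ± 0.57, adjusted p = 0.0085), Col18a1 (2.29 ± 0.32), Col5a2 (2.02 ± 0.27) and Col4a5 (1.74 ± 0.52). Lower were Col13a1 (-2.60 ± 0.32, adjusted p = 3.6e-04), Col15a1 (-1.71 ± 0.38), Col4a3 (-1.38 ± 0.26), Col4a1 (-0.59 ± 0.15) and Col4a2 (-0.59 ± 0.15). Without mouse 4, 3 were higher and 3 lower, and Col4a1, Col4a2 and Col4a5 were no longer called (adjusted p = 0.13, 0.12 and 0.10). Without mouse 2 the same 3 genes gave 0.076, 0.060 and 0.10, without mouse 1 Col4a5 gave 0.41, and without mouse 3 Col15a1 gave 0.10. Timp4 (6.49), Lamc3 (5.77) and Npnt (5.36) led the partner genes that were higher.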

How the data were processed

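Single-cell libraries of 4 kidneys, 1 per mouse, were analysed from the deposited matrices of raw UMI counts per gene and barcode. Per the submitters' processing notes, Cell Ranger 9.0.1 and Seurat 4.1.1 were used, and the deposited counts carry no normalization. For the genome build, annotation and strand setting: not given in the sources used here. Cells with at least 500 UMIs and 300 genes and under 50% mitochondrial UMIs were kept. Doublets were marked per library with Scrublet in scanpy 1.11.5. Counts were scaled to 10000 per cell and logged, and 2000 variable genes without collagens or their partner genes gave 30 components, 15 neighbours and Leiden clusters (leidenalg 0.10.2, resolution 1). A cluster was named where at least 3 fixed markers each had a UMI in 20% of its cells and were 2-fold above other cells. Stromal and endothelial clusters were sub-clustered within each mouse. Sub-clusters were left out for low UMI counts without leading markers of their own lineage, or for high doublet scores without a name. Leading markers of another lineage led to removal only together with a raised doublet score. These naming thresholds were set after the data had been seen.

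Raw counts were summed per mouse and class with at least 10 cells, and classes found in at least 3 mice were compared. The test was edgeR 4.0.16's quasi-likelihood test (R 4.3.3) over all genes passing its filter, with Benjamini-Hochberg adjustment over all of them and a threshold of 0.05. It was tested on simulated data. The SE of a log2 difference was derived from this test, as the absolute difference divided by the square root of its F statistic. Mouse was a block, because both classes come from the same animals. DESeq2 1.42.0, a fit without the block, other filters, another clustering and leaving out each mouse were alternatives, and leaving out cluster 1 and the 2 comparisons of endothelial subtypes with other endothelial cells were chosen after the data had been seen. The 4 libraries held 66762741, 64757026, 105436725 and 36831995 UMIs, and intervals cover counting error only (95%, with a floor of 3 counts). Collagens were named with values where they reached 10 CPM in a class or were called, and at most 3 called partner genes per list were named, by size of change. The members and lists were chosen with earlier results of these data known. Some items are not reported here.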

Additional observations from a re-analysis of the deposited data

Results flagged for a closer look

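In 6 of 73 sets of 4 mice, 1 mouse lay farther from the rest than Dixon's 95% limit, and chance gives about 1 in 20. The collagen share of UMIs was low in mouse 4 in 3 classes, at 0.548% against 0.913% to 0.951% in fibroblast-like cells, 0.227% against 0.488% to 0.540% in podocyte-like cells and 0.104% against 0.271% to 0.282% in cluster 28. Mouse 4 also had the lowest median UMI count per cell and the highest ribosomal share, and its fibroblast-like cells were named by partly different markers. The part of these in the values was not tested. The Col4a5 share of type IV UMIs was high in fibroblast-like cells of mouse 4, at 3.25% against 0% to 0.0678%. That value rests on few counts, with 123 type IV UMIs in mouse 4 against 536, 1475 and 2118 in mice 1 to 3. In tubular-like cells the Col4a5 share was low in mouse 3, at 2.76% against 7.95% to 8.13%. The Col4a6 share in endothelial-like cells was high in mouse 1, at 0.267% against 0% to 0.0285%.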

How the results depend on the processing

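Of 120 calls of single collagens, 92 were kept in every alternative that gave a value, 28 were lost in at least 1, and none reversed. Without the replicate block 24 calls were lost, with DESeq2 4, and without replicate 1, 2, 3 or 4 they numbered 12, 12, 4 and 8. The pairing comes from both classes being taken from the same mouse. Without the block, the glomerular comparison had 0 collagens called by edgeR (3 at an unadjusted p under 0.05) in place of 3, and the arterial one 1 in place of 9. Pathway genes called then fell from 25 to 15 (proximal tubule against thick ascending limb), 37 to 23 (cluster 28), 11 to 1 (glomerular) and 21 to 7 (arterial). With cells thinned to 1000 UMIs, collagens called fell from 20 to 11 (stromal against endothelial), 23 to 15 (stromal against tubular), 11 to 5 (podocyte against tubular), 16 to 6 (fibroblast against mural) and 9 to 5 (arterial), where fewer genes passed the filter, and the Col4a6 share rose to 0.878% in thick ascending limb-like and 0.900% in tubular-like cells. Proximal tubule against thick ascending limb gave 9 collagens without the filter and 9 at resolution 0.5, in place of 5, and 5 to 8 leaving out each mouse. The glomerular comparison gave 1 to 5 collagens and 4 to 24 pathway genes leaving out each mouse, with 2 mice in each fit. At resolution 0.5 the proximal tubule-like class had a collagen share of 0.151%, with 65.5% Col4a1 and Col4a2, 26.2% Col4a3 and Col4a4 and 0.844% Col4a6 in type IV, and the comparison with cluster 28 gave no value. With cells of 1000 UMIs or more, the capsule/injury-marker cluster held 338 cells, beside a thin limb-like cluster of 196. It had 73.8% Col4a1 and Col4a2 and 17.9% Col4a3 and Col4a4, and fibroblast-like cells had 0.0852% Col4a6. Leaving out the highest doublet scores gave 92.0% Col4a3 and Col4a4 in podocyte-like cells. The causes were not tested. Thinning left out 484 of 2720 proximal tubule-like, 73 of 596 podocyte-like and 7 of 122 fibroblast-like cells.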
